A study of Mus musculus with 8 samples.

Results

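Chromatin bound by wild-type (WT) Foxp3 was compared with the background of a non-specific antibody in the same kind of regulatory T (Treg) cell. The comparison used the 4 WT libraries of the 8 in the series, namely 2 made with an anti-Foxp3 antibody and 2 made with normal rabbit IgG, and covered every listed Foxp3 binding site. The authors sorted the 5521 sites into 3847 they called common, 727 cTreg-specific ones and 947 eTreg-specific ones (eTreg, effector Treg). All 4 libraries came from freshly sorted CD4+hCD2+GFP- Treg cells of spleen and lymph nodes, taken from C57BL6/J mice of genotype Foxp3WT-IRES-hCD2/Foxp3-IRES-GFP. These heterozygous mice carry 1 Foxp3 allele marked by hCD2 and 1 marked by GFP, and the gate kept cells using the hCD2 allele, so the same genotype and gate stand behind both antibodies. The labels give no age, and nothing in them says that libraries 1 and 2 of an antibody are from different mice. The spread behind every p-value is thus that between these samples, and it may be technical. Libraries of the same number are called a pair here, which is a rule for counting and not a known link through an animal.

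Foxp3 is a forkhead transcription factor that defines Treg cells, the CD4+ T cells that hold immune responses in check, and it binds DNA together with partners such as Runx1, ETS and AP-1 family factors. In CUT&Tag, an antibody brings a transposase to chromatin, which cuts and tags the DNA nearby for sequencing. The transposase also cuts open chromatin without help from the antibody, so an IgG library shows where reads gather in the absence of a specific target, and the starts of active genes are known to be open. Central and effector Treg cells differ in activation and homing, and the site classes are named after them.

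The promoter letters are shown for 6 sites at a gene start, where IgG reads were most frequent. Each differed from IgG by at least 2-fold in the same direction in both pairs. Among 10 promoters within sites above IgG by this rule, Foxp3 and Tigit were picked by name, and Tmem140 and Gimap3 because they held TGTTTAC. Usp12 and Dennd6b were picked for high mean IgG values among 6 promoters below. The forkhead letters among the 6 shown thus follow from the choice. Each run is the RefSeq promoter on the build GRCm38.p6, from 250 bases before the start to the base before it, printed 5′ to 3′ on the strand of the gene. Capitals mark a match to 1 of the motifs searched on both strands, which were forkhead TGTTTAC and TGTTTGC, AP-1 TGANTCA, ETS CCGGAAG and GAGGAAG, and RUNX TGTGGTT. The first 4 genes had more Foxp3 than IgG signal and the last 2 had less.
Foxp3, chrX:7579426-7579675, plus strand: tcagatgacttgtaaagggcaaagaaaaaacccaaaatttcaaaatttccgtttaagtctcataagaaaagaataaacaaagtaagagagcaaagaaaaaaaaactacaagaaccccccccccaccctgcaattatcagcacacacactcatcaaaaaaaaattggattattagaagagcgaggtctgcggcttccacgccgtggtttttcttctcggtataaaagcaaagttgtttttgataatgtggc
Tigit, chr16:43664185-43664434, minus strand: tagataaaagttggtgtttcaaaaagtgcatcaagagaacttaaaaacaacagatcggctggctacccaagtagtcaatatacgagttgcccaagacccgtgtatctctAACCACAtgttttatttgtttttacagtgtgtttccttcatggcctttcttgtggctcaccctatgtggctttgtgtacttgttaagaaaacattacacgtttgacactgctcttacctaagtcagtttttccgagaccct
Tmem140, chr6:34862896-34863145, plus strand: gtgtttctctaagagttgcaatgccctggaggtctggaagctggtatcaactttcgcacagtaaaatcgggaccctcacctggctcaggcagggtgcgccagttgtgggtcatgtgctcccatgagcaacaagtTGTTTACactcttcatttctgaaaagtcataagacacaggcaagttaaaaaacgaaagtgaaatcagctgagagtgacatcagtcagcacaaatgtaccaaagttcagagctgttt
Gimap3, chr6:48770852-48771101, minus strand: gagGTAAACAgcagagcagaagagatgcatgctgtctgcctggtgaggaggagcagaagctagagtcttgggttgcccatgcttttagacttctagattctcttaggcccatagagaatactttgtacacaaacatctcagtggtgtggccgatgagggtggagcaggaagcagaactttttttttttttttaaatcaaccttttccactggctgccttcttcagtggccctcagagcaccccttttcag
Usp12, chr5:146794957-146795206, minus strand: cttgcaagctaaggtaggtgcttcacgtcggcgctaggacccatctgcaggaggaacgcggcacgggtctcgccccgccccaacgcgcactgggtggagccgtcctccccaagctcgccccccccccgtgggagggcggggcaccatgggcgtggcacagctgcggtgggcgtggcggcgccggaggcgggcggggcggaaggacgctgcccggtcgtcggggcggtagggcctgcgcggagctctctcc
Dennd6b, chr15:89196475-89196724, minus strand: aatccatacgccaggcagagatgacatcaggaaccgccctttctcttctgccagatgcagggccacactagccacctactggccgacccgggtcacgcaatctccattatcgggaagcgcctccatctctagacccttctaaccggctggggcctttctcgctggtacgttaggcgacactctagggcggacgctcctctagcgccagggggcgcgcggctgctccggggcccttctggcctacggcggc

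At the Foxp3 promoter itself, no searched motif was found in these letters. The Tigit promoter (Tigit is an inhibitory receptor of activated T cells) holds a RUNX match 141 bases before the start. Forkhead matches stand 116 bases before the start of Tmem140 and 247 bases before that of Gimap3, a member of a GTPase family of lymphocytes. Over all sites, 213 RefSeq promoters of 200 genes lay within a site, and TGTTTAC was found in 9.86% of them, against 2.62% of the 21262 promoters in the table. The other forkhead form, TGTTTGC, was not more frequent there, with 3.29% against 3.93%. Among the 35 promoters higher in Foxp3 than in IgG in both pairs by any amount, 7 (20.0%) held TGTTTAC, namely those of Zup1, Mdm2, Rsad2, Pot1a, Tmem140, Gimap3 and Eola1. Among the 77 that were lower in both pairs, 3 (3.90%) held it. The higher group also had a lower GC content, 52.5% ± 9.03 (SD over promoters) against 62.6% ± 8.58, and the part of base composition in the motif shares was not tested. The ETS letters CCGGAAG were in 23.5% of the promoters within sites, 20.0% of those higher, 24.7% of those lower and 8.98% of all promoters. GAGGAAG was in 14.6% of promoters within sites against 10.3% of all, the AP-1 letters in 7.04% against 6.13%, and the RUNX letters in 6.57% against 3.82%. Other motifs were also more frequent in the higher than in the lower group. The AP-1 letters were in 11.4% against 5.19%, TGTTTGC in 5.71% against 2.60%, and the RUNX letters in 8.57% against 6.49%. For GAGGAAG the shares were 17.1% and 18.2%. A match is a description of these letters, and no test was made on it.

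The 4 libraries covered the sites unevenly, which touches every result that follows. Reads in the listed sites numbered 279737 and 394196 in Foxp3 libraries 1 and 2, and 297706 and 288223 in IgG libraries 1 and 2. At least 1 read was found at 96.9% and 55.6% of sites with Foxp3, and at 73.0% and 33.2% with IgG. Thinning all libraries to 279737 reads left these shares at 96.9%, 55.2%, 72.9% and 33.1%. The libraries numbered 2 were also the more concentrated ones, with 37.2% (Foxp3) and 48.6% (IgG) of reads in the top 5% of sites, against 21.2% and 27.8% in the libraries numbered 1. Across sites, log2 values of the 2 Foxp3 libraries had r = 0.56, while Foxp3 library 1 and IgG library 1 had r = 0.59 and Foxp3 library 2 and IgG library 1 had r = 0.61; all share the same 5521 sites and their openness, and sites are not replicates. The Treg label could not be checked by expression. None of the listed sites was assigned to a B cell (11 genes) or myeloid (14 genes) marker, which follows from the preset site list and says nothing of the cells in these libraries.

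Foxp3 signal stood above IgG more often than below it, and many sites did so in 1 pair only. On the log2(normalised reads + 1) scale, which understates differences at weak sites, 2804 sites (50.8%) were at least 2-fold above IgG in pair 1 and 1964 (35.6%) in pair 2. Both pairs agreed on 951 sites above IgG (17.2%) and on 68 sites below it (1.23%). With recovered reads scaled to equal totals instead of the deposited factors, the counts were 703 and 215. At 424 sites the pairs were at least 2-fold apart from IgG in opposite directions. Of the sites above IgG in pair 1, 33.9% were also above it in pair 2, a share close to the 35.6% of all sites, and the 2 pairs' differences had r = -0.03 over the 5521 sites. Among the 1380 sites (25%) with the highest mean signal, the corresponding share was 56.3% against 42.4%, with r = 0.14, and 215 sites were above IgG in both pairs. The rule's edge was not crowded: 57 sites passed with a smaller difference between 1 and 1.1, and 72 missed with 0.9 to 1.

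**Figure D1:**
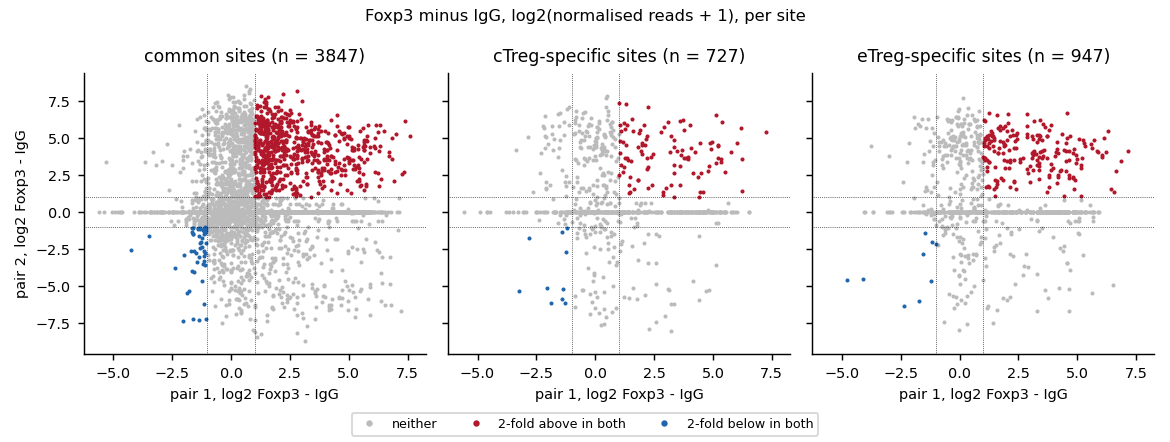
Each point is a site, with the log2 difference Foxp3 minus IgG of pair 1 on the x axis and of pair 2 on the y axis, 1 panel for each site class; dotted lines mark a 2-fold difference. The 951 sites above IgG in both pairs (red) outnumber the 68 below in both (blue), and the line of points at 0 on the y axis comes from sites without reads in both libraries numbered 2.

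Much of this contrast lay in whether a site had reads at all. Both Foxp3 libraries and neither IgG library had reads at 271 sites (4.91%), while the reverse was seen at 2 sites. Of the 951 sites above IgG, 255 (26.8%) had no read in either IgG library, 798 (83.9%) had none in IgG library 2, and 136 had reads in both. Over all 5521 sites, 1333 had no read in either IgG library, 66.8% had none in IgG library 2, and 30.3% had reads in both. The 26.8% was thus close to the share over all sites. The 136 make up 9.44% of the 1440 sites with reads in all 4 libraries, of which 48 (3.33%) were below IgG in both pairs. The pattern of reads in both Foxp3 libraries and in neither IgG library was seen at 80 eTreg-specific sites (8.45%), 41 cTreg-specific sites (5.64%) and 150 common sites (3.90%).

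**Figure D2:**
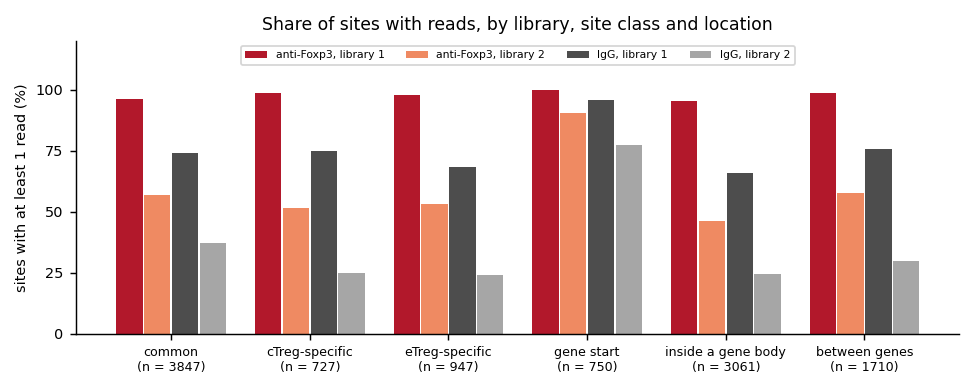
Bars give the percent of sites with at least 1 read in each of the 4 libraries, for the 3 site classes and the 3 locations (x axis, with the number of sites). Foxp3 library 1 has reads at nearly every site of each group, and IgG library 2 has reads at 77.2% of sites at gene starts but at 24.4% of those inside gene bodies.

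All 3 site classes had a positive mean difference in both pairs. The mean was 1.66 (pair 1) and 1.23 (pair 2) at eTreg-specific sites, 1.47 and 0.98 at common sites, and 1.19 and 0.98 at cTreg-specific sites. With reads scaled to equal totals, the mean of the pairs was 1.53 at eTreg-specific, 0.95 at common and 1.24 at cTreg-specific sites. The order of common and cTreg-specific sites thus depended on the scaling. Sites above IgG in both pairs made up 195 of 947 eTreg-specific sites (20.6%), 653 of 3847 common sites (17.0%) and 103 of 727 cTreg-specific sites (14.2%), while 9, 49 and 10 sites were below. Class means depended on single libraries. The mean of the pairs, 1.22 at common sites, was 0.11 without Foxp3 library 1 and 0.36 without IgG library 2, against 2.33 without Foxp3 library 2 and 2.09 without IgG library 1. At cTreg-specific sites it was 1.09 with all libraries and turned to -0.16 without Foxp3 library 1 and to -0.059 without IgG library 2. At sites with reads in all 4 libraries, the pair means were 0.36 and 0.32 for common, 0.47 and 0.11 for eTreg-specific, and 0.23 and -0.46 for cTreg-specific sites.

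A ratio of reads within a library is free of the factors by which the 3 files were scaled separately. The log2 ratio of reads at cTreg-specific to common sites was -2.45 and -3.35 with Foxp3 and -3.04 and -3.54 with IgG. The groups overlapped, and the difference of 0.39 gave p = 0.667 (exact permutation test over 4 libraries, two-sided), where 0.33 is the smallest p that 2 against 2 allows. It turned to -0.057 without Foxp3 library 1. For eTreg-specific to common sites the ratio was -2.19 and -2.69 with Foxp3 against -2.72 and -3.34 with IgG, without overlap, and the exact permutation p was 0.33.

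Pooled over classes, sites at gene starts had the lowest mean difference, Foxp3 minus IgG. The zero level of these differences depends on the scaling, and so do the counts above and below IgG. The order of the locations is what is described here. The 750 sites at a gene start, within 1 kb of an annotated start (or of either end of a gene whose start is not in the table), had a mean difference of 0.24 and 0.57 in the 2 pairs and 62 sites (8.27%) above IgG against 27 (3.60%) below. Sites inside gene bodies (3061) averaged 1.65 and 0.97, with 524 above (17.1%) and 27 below. Sites between genes (1710) averaged 1.66 and 1.31, with 365 above (21.3%) and 14 below. Gene starts held 13.6% of all sites, 6.52% of the sites above IgG and 39.7% of those below. Most gene starts (691) were common sites, and the few of the other classes did not follow this order in pair 2. At 26 cTreg-specific gene starts the pair means were 0.27 and 1.19, against 1.17 and 0.93 inside gene bodies and 1.30 and 1.04 between genes. At 33 eTreg-specific gene starts they were 0.82 and 1.41, against 1.57 and 1.23 and against 1.84 and 1.21, so gene starts were the lowest location in pair 1 and the highest in pair 2.

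The pooled order was also seen where all 4 libraries had reads. There the pair means were -0.10 and -0.12 at 551 gene starts, 0.63 and 0.43 at 527 sites inside gene bodies, and 0.66 and 0.46 at 362 sites between genes, with 19, 71 and 46 sites above IgG and 26, 17 and 5 below. Among the 25% of sites with the highest mean signal, the means were -0.15 and 0.17 at gene starts, 0.72 and 1.52 inside gene bodies, and 0.78 and 2.05 between genes. Further from a start the share above IgG changed little, with 19% at 1 to 10 kb, 18% at 10 to 50 kb and 19.5% beyond 50 kb. Of the 100 sites with the highest mean IgG value, 61 lay at a gene start, against 30 of the 100 with the highest mean Foxp3 value; 38 sites were in both lists.

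Among common sites, 691 gene starts took 21.6% and 39.9% of reads in Foxp3 libraries 1 and 2, and 36.1% and 54.6% in IgG libraries 1 and 2. The Foxp3 share was the lower one within each pair, but Foxp3 library 2 stood above IgG library 1, so the groups overlapped. The log2 ratio of reads at gene starts to reads at other common sites differed between Foxp3 and IgG by -1.04 in pair 1 and -0.86 in pair 2 (exact permutation p = 0.667 over 4 libraries). The cTreg-specific class had -1.03 and 0.25 in the 2 pairs, and the eTreg-specific class -0.29 and 0.46. Averaged per site, the difference between gene starts and other common sites was -1.05, and it was 0.055 without Foxp3 library 1 and -2.15 without Foxp3 library 2.

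**Figure D3:**
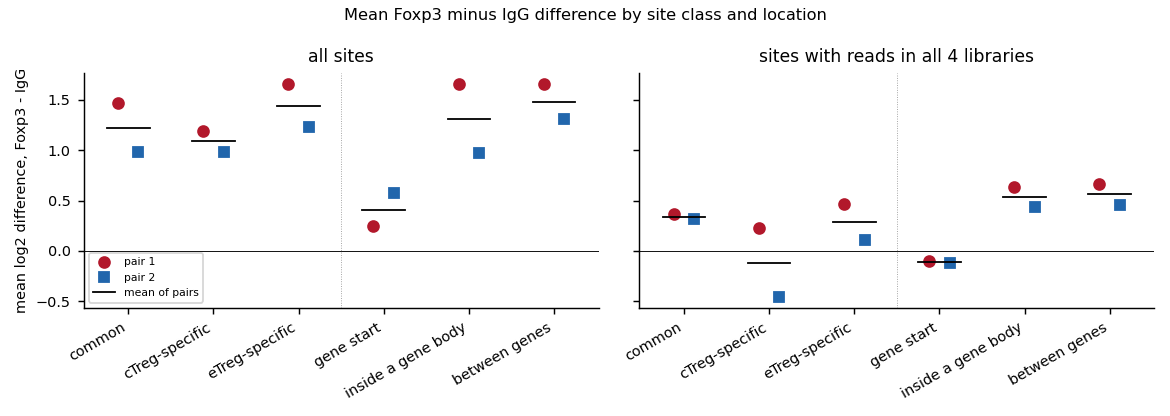
Mean log2 difference Foxp3 minus IgG (y axis) in pair 1 (circles) and pair 2 (squares), with a line at their mean, for the 3 classes and the 3 locations; the left panel has all sites and the right panel the 1440 sites with reads in all 4 libraries. Gene starts are lowest among the locations in both panels, and on the right they lie at -0.10 and -0.12.

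No single site passed the test across all 5521 sites. Limma called 0 sites (0%) at an adjusted p of 0.05, the lowest adjusted p being 0.695, and 21 sites above and 7 below IgG had an unadjusted p under 0.05. With reads scaled to equal totals that balance turned, with 6 above and 12 below and again 0 called. On the recovered reads, edgeR also called 0 sites (37 above and 24 below at an unadjusted p under 0.05), as did DESeq2 (234 and 5). Fitted differences were higher with Foxp3 at 4100 sites and lower at 1325. The test had little power where the spread was wide. In counts simulated for this comparison over 5521 sites with the data's common dispersion of 3.70, limma and edgeR recovered 0% of 16-fold changes. At a dispersion of 0.1, limma recovered 60.5% of them with 7 false calls, and edgeR 100% with 6. Each simulation gave every site the same dispersion, so neither gives the power at a particular site. The 200 changed sites were drawn from those with a mean above the median, so recovery at weaker sites was not simulated. Calls rested on which libraries were used, with 1270 sites above IgG without Foxp3 library 2 and 306 without IgG library 1; of the 1270, 1224 had no read in either IgG library.

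With the lowest 25% of sites left out, limma called 1 site. It is a common site inside Heg1, a membrane protein of cell junctions best known from blood vessels, at chr16:33708064-33708464. Foxp3 values there were 668 and 794, and IgG values 250 and 238, so that the groups did not overlap. The log2 difference was 1.57 (SE 0.27) with a limma adjusted p of 0.00562 in that fit.

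The sites with the firmest reads were those with at least 20 reads in each of the 4 libraries, of which 47 were above IgG in both pairs. The number of all such sites, and of those below IgG, was not counted, so 47 cannot be read as a share. Among the 1440 sites with reads in all 4 libraries, 136 (9.44%) were above IgG and 48 (3.33%) below. The 12 with the largest smaller difference were picked after their values were seen and are given as a description. An eTreg-specific site inside Itpkb, a kinase that acts on inositol phosphates in lymphocyte receptor signalling, came first, with Foxp3 values of 162 and 175 against IgG values of 13.2 and 13.1. Nmnat2, an enzyme of NAD synthesis, had an eTreg-specific site with 70.2 and 139 against 13.2 and 31.5. A cTreg-specific site inside Coro1c, an actin-binding coronin, had 74.1 and 65.5 against 20.6 and 13.5. In each case both Foxp3 libraries lay above both IgG libraries.

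Common sites of the same kind included one at the start of Runx1, a DNA-binding partner of Foxp3, with 326 and 132 against 86.6 and 37.3. A site inside Mast4, a serine/threonine kinase, had 141 and 156 against 37.0 and 12.9, and one inside Zswim6 had 166 and 264 against 33.7 and 28.4. Both Foxp3 libraries again exceeded both IgG libraries. Rap1b, a small GTPase of T cell adhesion, had a site 60795 bp from the gene with 188 and 76.4 against 41.6 and 20.4.

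**Figure D4:**
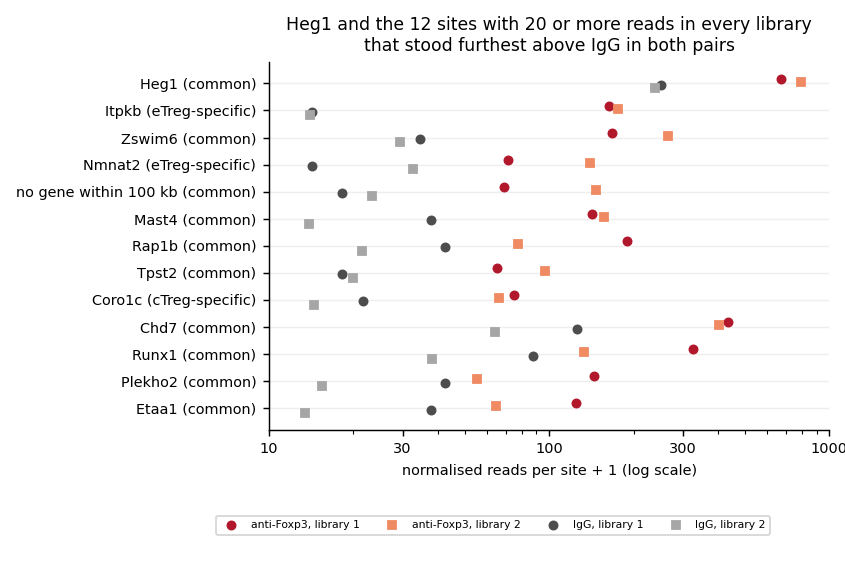
Normalised reads + 1 (x axis, log scale) in each of the 4 libraries at the Heg1 site and at 12 sites with at least 20 reads in every library that were furthest above IgG in both pairs. In every row both Foxp3 libraries (red and orange) lie to the right of both IgG libraries (dark and light grey).

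Larger differences were found where IgG gave no reads, and the background there was not measured. Within common sites, the widest was inside Prkg1, a cGMP-dependent kinase, with Foxp3 values of 166 and 69.4 and IgG listed at 0 in both libraries. Against a floor of 3 reads per IgG library, Foxp3 was 83.8-fold higher in pair 1 and 46.5-fold higher in pair 2. This floor covers counting error only and not the spread between libraries, so these folds are not lower bounds on the difference. Sites near St6galnac3, a sialyltransferase (80.0 and 57.7), near Akap13, an anchoring protein of protein kinase A (70.3 and 57.7), and inside Tnfrsf26, a TNF receptor family member (55.8 and 57.3), had likewise no IgG reads. In all of these both Foxp3 libraries had at least 46 reads.

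At cTreg-specific sites the widest differences lay inside Bcl2l1, which encodes the survival protein Bcl-xL (150 and 40.7), and near Tprg (72.4 and 49.5), Phlda1 (40.4 and 66.0) and the tyrosine phosphatase gene Ptpn1 (33.7 and 91.8), all with IgG at 0. At eTreg-specific sites they lay near Akap13 (78.8 and 42.6), near Tnfaip3, which encodes the NF-kB inhibitor A20 (69.3 and 31.5), and inside the chemokine receptor gene Cx3cr1 (32.9 and 29.2), again with IgG at 0. For the Tnfaip3 site Foxp3 was 36.7-fold and 19.3-fold above the same floor in the 2 pairs. The limma adjusted p of each of these sites was 0.695.

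The highest Foxp3 values were not the clearest contrasts. At the common site with the highest mean Foxp3 value, near Ramp3, pair 1 was level with IgG (849 against 831) and pair 2 was above it. At the cTreg-specific one, near Tcf7 (a transcription factor of resting T cells), pair 1 was below IgG and pair 2 above it, with log2 differences of -1.24 and 1.78. The eTreg-specific one, inside the kinase gene Alpk2, was above IgG in both pairs, by 1.16 and 3.03.

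Sites below IgG were few, and 65 of the 68 had at least 20 reads in both IgG libraries, as had 1251 of all 5521 sites. A site below IgG in both pairs must have reads in both IgG libraries, so this high share follows in part from the rule. Of the 951 sites above IgG, 663 had at least 20 reads in both Foxp3 libraries. The start of Eef1a1, a translation elongation factor used in every cell, had 74.0 and 53.5 with Foxp3 against 163 and 422 with IgG. The start of Usp12, a deubiquitinase whose promoter is shown above, had 114 and 186 against 288 and 388, and that of Dennd6b 98.2 and 135 against 259 and 298. Both IgG libraries exceeded both Foxp3 libraries at these 3 starts.

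Other sites below IgG had next to no Foxp3 signal. A common one lay inside the splicing regulator gene Mbnl1 (4.85 and 0 against 23.1 and 161). Inside Ripor2 a cTreg-specific site had 1.68 and 0 against 24 and 39.8, and inside Rexo5, a putative RNA exonuclease, an eTreg-specific site had 0.866 and 0 against 50.3 and 23.4. Of the 68, 19 had no read in Foxp3 library 2.

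Of the sites assigned to the Treg genes Foxp3, Il2ra, Ctla4 and Ikzf2, some were above IgG in both pairs and most were not. Over all sites, 17.2% were above IgG by this rule, so such a mix is not particular to these genes. The Foxp3 gene had 2 sites. The one at its start had 64.3 and 15.8 with Foxp3 against 5.29 and 0 with IgG and was above IgG in both pairs. The second, centred 4.45 kb after the start, had 212 and 233 against 194 and 29.9, so Foxp3 was higher in both libraries, but IgG library 1 came close and pair 1 differed by 0.13 on the log2 scale.

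Il2ra encodes the high-affinity chain of the IL-2 receptor and had 7 sites, 2 of them above IgG in both pairs. A common site 10.8 kb after the start, at chr2:11653356-11653756, had 329 and 568 against 138 and 70.7 without overlap (log2 difference 2.12, SE 0.55, limma adjusted p = 0.695). Another 15.0 kb after the start had 69.1 and 19.1 against 0 and 0. The site at the Il2ra start had 113 and 37.2 against 97.8 and 79.6, with overlapping groups. A site 12.6 kb after the start went both ways, with 55.8 and 0 against 1.98 and 91.1.

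Ctla4, an inhibitory receptor by which Treg cells restrain co-stimulation, had 5 sites and none above IgG in both pairs. Its site 1.39 kb before the start had 95.8 and 40.0 against 0 and 46.3, so the pairs split. The site 4.44 kb after the start had 194 and 0 against 61.6 and 0, with no reads in either library numbered 2. Ikzf2, which encodes the Treg transcription factor Helios, had 8 sites, of which 2 common ones were above IgG, with 44.9 and 37.7 against 16.5 and 0, and 76.4 and 31.2 against 9.25 and 0. An eTreg-specific Ikzf2 site had 68.4 and 35.7 against 99.3 and 72.9 and lay on the IgG side in both pairs, though by less than 2-fold in pair 1.

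**Figure D5:**
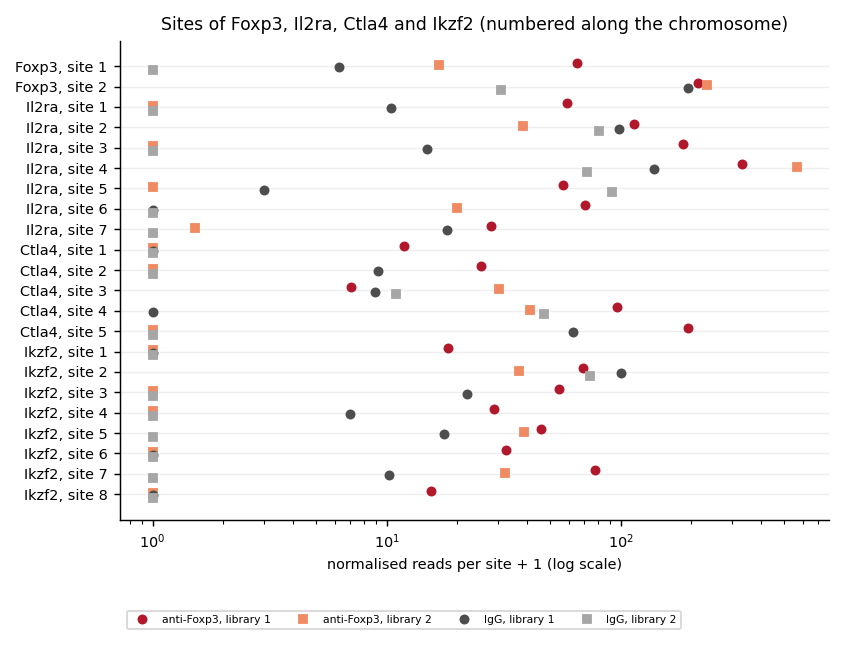
Normalised reads + 1 (x axis, log scale) in each of the 4 libraries at the 22 sites assigned to Foxp3, Il2ra, Ctla4 and Ikzf2, numbered along the chromosome; a point at 1 has no reads. Foxp3 library 1 has reads at every site, whereas both libraries numbered 2 have none at 10 of them.

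Gene lists are described by counts, beside 17.2% of all sites above IgG, a median log2 difference (mean of the pairs) of 1.27 over all sites, and medians of 1.04 in pair 1 and 0 in pair 2. Of the 25 genes on the core Treg list, 18 had a site; 23 of their 96 sites (24%) were above IgG in both pairs, in 13 genes, and 0 were below, with a median of 1.74 (1.56 in pair 1 and 0 in pair 2). No site of any list passed limma's test. Sites with no IgG reads lay inside Ets1 (69.1 and 30.7), Stat5b, a mediator of IL-2 signals (32.7 and 29.8), Ikzf3 (36.2 and 11.9), Nrp1 (10.9 and 71.1) and the co-stimulatory receptor gene Icos (17.0 and 10.7), and near Nt5e, which encodes the ectoenzyme CD73 (24.3 and 16.9).

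Effector Treg genes had 8 of 48 sites above IgG (16.7%), 0 below, with a median of 1.13 (0.97 in pair 1 and 0 in pair 2). The Tigit start, an eTreg-specific site at chr16:43664097-43664497, had 304 and 104 against 11.9 and 0. Within Rora, a nuclear receptor gene, a site had 78.8 and 56.4 against 10.1 and 0, and one near Tnfrsf9, which encodes the co-stimulatory receptor 4-1BB, had 183 and 46.4 against 37.7 and 0. At these 3 sites both Foxp3 libraries exceeded both IgG libraries.

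Genes of naive and resting T cells had 13 of 83 sites above IgG (15.7%) and 1 below, with a median of 1.95 (1.58 in pair 1 and 0 in pair 2). A site inside Foxp1, a forkhead factor of resting T cells, had 129 and 37.2 against 0 and 0, and one near S1pr1, the receptor for exit from lymph nodes, had 98.5 and 52.6 against 12 and 0. The 1 below lay inside Bcl2, with 17.7 and 0 against 77.2 and 33.4. The Bach2 site above IgG (112 and 2.79 against 27.8 and 0) rested on single libraries, since its difference turned to -0.50 without Foxp3 library 1 and to -0.48 without IgG library 2.

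The AP-1, IRF and NFAT genes had few sites, of which 6 of 13 (46.2%) were above IgG in 5 genes and 0 below, with a median of 2.47 (0.56 in pair 1 and 3.81 in pair 2). Near Fosl2, an AP-1 subunit, values were 20.6 and 21.0 against 0.661 and 0.498, the IgG values being 1 read each. Inside Irf2 they were 76.4 and 16.8 against 0 and 0, and near Fosb 62.4 and 13.1 against 4.4 and 0. The site near Fos (108 and 3.72 against 25.1 and 0) turned to -0.11 without Foxp3 library 1 and to -0.20 without IgG library 2.

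T cell receptor signalling genes had 6 of 64 sites above IgG (9.38%) and 1 below, with a median of 1.84 (0.78 in pair 1 and 0 in pair 2). The pair 2 median was 0 over all sites too, and sites without reads in both libraries numbered 2 have a difference of 0 there. A site inside Cd247, the zeta chain of the receptor, had 158 and 237 against 56.2 and 0.498, and the one below IgG, inside the phospholipase gene Plcg1, had 32.7 and 12.6 against 89.9 and 140. Cytokine receptors and STATs had 12 of 59 sites above (20.3%), NF-kB and TNF receptor genes 5 of 19 (26.3%), and conventional T cell cytokines 2 of 7 (28.6%), with 0 below in each and medians of 1.65, 1.79 and 1.83 (1.93, 1.96 and 0.92 in pair 1, and 0, 0.48 and 2.76 in pair 2). The 2 cytokine sites lay near Il2 (34.0 and 22.3 against 2.64 and 0) and near Ifng (21.7 and 5.76 against 0 and 0). CD8 T and NK cell markers had 3 sites and housekeeping genes 4, none of them above IgG.

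When values were summed over the sites of a gene, 472 of 2769 genes (17.0%) were at least 2-fold above IgG in both pairs and 46 (1.66%) below. Limma called 0 genes (22 higher and 3 lower at an unadjusted p under 0.05), and 338 without Foxp3 library 2. With reads scaled to equal totals the genes above and below in both pairs numbered 294 and 153, and the unadjusted counts turned to 4 higher and 12 lower. Without the lowest 25% of genes it called 4, namely Ets1, Cd6, Arhgef10 and 4930523C07Rik. The Il2ra sum was 835 and 624 against 278 and 241 and passed the 2-fold rule in both pairs. The sums of Foxp3 (277 and 249 against 199 and 29.9), Ctla4 (331 and 69.4 against 77.7 and 56.2) and Ikzf2 (334 and 105 against 152 and 72.9) did not.

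Of the 2769 genes with a site, 697 (25.2%) had at least 1 site above IgG and 132 had 2 or more. The number of genes with 2 or more sites of any kind was not counted, so 132 cannot be read as a share. The genes named next were picked by their count of sites above IgG. Chd7, which encodes a chromatin remodeller, had the most, with 9 of its 11 sites above IgG and sums of 1249 and 933 against 415 and 212. The strongest of them, at chr4:8811025-8811425 inside the gene, had 435 and 404 against 125 and 63.2. Atxn1, which encodes the repressor ataxin-1, had 5 of 8 sites above IgG and sums of 443 and 178 against 119 and 44.1. In both genes the 2 Foxp3 sums lay above the 2 IgG sums.

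Many sites above IgG did not always raise the sum of a gene. Akap13 had 7 of 22 sites above IgG, yet its sums were 1004 and 317 against 421 and 534, with overlap. Sgms1, a sphingomyelin synthase, had 5 of 11 sites above and sums of 718 and 171 against 180 and 179. Foxp1 had 4 of 21 sites above, with sums of 1447 and 749 against 457 and 565, so that both Foxp3 sums were higher but pair 2 differed by 0.41 on the log2 scale.

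Among genes with at least 3 sites, 122 of 517 were above IgG in both pairs and 2 below. The widest were Zfand3 (152 and 40.5 against 5.15 and 0), the nuclear pore gene Nup160 (25.2 and 22.7 against 0 and 0) and St6galnac3 (121 and 57.7 against 8.57 and 0), each with 1 site above IgG. The 2 below were Phf20l1 (17.0 and 14.4 against 41.0 and 169) and Ppp3cc, a catalytic subunit of calcineurin (34.0 and 24.7 against 74.0 and 269). Limma's adjusted p was 0.849 for each of these genes. By chromosome, the share of sites above IgG in both pairs ranged from 11.9% on chromosome 3 to 21.3% on chromosome 10, with 14.4% on X.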

How the data were processed

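CUT&Tag libraries were made, per the labels' protocols, from cells fixed in 0.1% formaldehyde for 2 minutes with spike-in nuclei added, 0.5 µg of antibody (an in-house rabbit polyclonal against Foxp3, or normal rabbit IgG) and 14 to 15 PCR cycles. The submitters' processing notes name Bowtie2 2.5.2 and DiffBind 3.12.0; they list mm10 and dm6 as builds without saying for what; coordinates are taken as mm10, and the calling of sites is described nowhere in these sources. The deposited values are a normalised signal per site and library in 3 files. All values above 0 (100%) were whole multiples of 1 read (tolerance 0.01), and each library's factor equalled the median-of-ratios factor of that file's own sites over all 8 columns, so the files were scaled separately and a gain over all sites is removed. The R397W columns entered only that check.

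Differences are log2(signal + 1), Foxp3 minus IgG, in same-numbered pairs. The labels do not say that a number is 1 animal, so numbers were not treated as a pairing in the test. The correlation of same-numbered deviations was 0.04 and was not the ground for this choice. The test was limma 3.58.1 (trended, two-sided, R 4.3.3) with Benjamini-Hochberg adjustment over all sites or genes and a threshold of 0.05. The recovered reads were tested with edgeR 4.0.16 and DESeq2 1.42.0, with the factors as offsets. The fit was tested on simulated data. Each site was assigned to the protein-coding gene (from RefSeq's GRCm38.p6 table) in whose body, extended by 5 kb, the centre lay, or failing that the gene with the nearest end up to 100 kb away; 5210 sites had one. Starts were known for 17491 of 21896 genes, and either end was used for the others. Site sequences were not analysed here, only RefSeq promoters. Folds at sites without IgG reads use a floor of 3 reads per library, which covers counting error only and not the spread between libraries.

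Named sites are those called by limma, those with the largest difference in the weaker pair (at least 20 reads in both libraries of the higher antibody), the highest Foxp3 value of each class, list genes with a site above or below IgG, and all sites of 4 Treg genes; other picks are marked in the text, and 1 site that the rule names is not reported here. The comparison, lists and rules were chosen with earlier results of these data known. Alternatives were other pseudocounts, filters, scalings, tests, pairings and folds, and each library left out.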

Additional observations from a re-analysis of the deposited data

How the results depend on the processing

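The limits lie in the coverage: 2 libraries per antibody, of which IgG library 2 had no reads at 66.8% of sites, so a difference there was a matter of detection. Thinned to 279737 reads in sites, IgG library 2 had reads at 33.1% of sites and Foxp3 library 1 at 96.9%. The cause of the empty sites was not tested. Removing the lowest 25% gave 1 site and 4 genes above IgG by limma's test, where 0 were called; leaving out 1 library (the lone library of that antibody is then assumed to vary like the other 2) gave 0 to 1270 sites above, 0 to 4 below and 0 to 338 genes above. With the replicate block limma called 0 sites (230 above and 11 below at an unadjusted p under 0.05) and 0 genes, and edgeR 0 sites, which changed no call; the deviations of same-numbered libraries had r = 0.04 over all sites and 0.10 over sites with reads in all 4. The 951 sites above IgG in both pairs numbered 136 among sites with reads in all 4 libraries and 511 at 4-fold. The 68 below numbered 215 with reads scaled to equal totals, 118 with crossed pairs and 9 at 4-fold, and genes above and below numbered 294 and 153 at equal totals, where sites above numbered 703. The mean difference was 0.75 at common and 0.82 at eTreg-specific sites with a pseudocount of 5, and 0.34 and 0.29 at sites with reads in all 4 libraries; leaving out 1 library gave 0.11 to 2.33 and 0.26 to 2.62. At cTreg-specific sites it was 1.33 and 0.59 with pseudocounts of 0.5 and 5 and 1.24 at equal totals, reversed to -0.12 at sites with reads in all 4 libraries, and ranged from -0.16 (without Foxp3 library 1; -0.059 without IgG library 2) to 2.34. Gene starts against other common sites, an alternative set added after the data were seen, ranged from -2.15 to 0.055, the latter without Foxp3 library 1. The eTreg-specific to common ratio difference was 0.33 as a share of sites with reads, 0.41 at sites with reads in all 4 libraries and 0.29 to 0.91 with 1 library left out; the cTreg-specific one ranged from -0.057 (without Foxp3 library 1) to 0.84. Named sites were chosen for 1 sign in both pairs and several alternatives leave the difference as it is, so their direction was largely fixed by the choice; Bach2 turned to -0.50 and -0.48, and Fos to -0.11 and -0.20, without Foxp3 library 1 and without IgG library 2 in turn (ranges -0.50 to 4.39 and -0.20 to 4.5). Apart from what a setting's own construction explains (fewer sites or libraries), the cause was not tested.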
